A study of Mus musculus with 8 samples.

Results

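Sp1, Sp2, Sp3 and Sp4 are 4 of the 22380 protein-coding genes of the GENCODE vM1 annotation, and the accessibility of their promoters was compared across 7 ATAC-seq libraries. They were selected on earlier results of the same peak lists, because strong promoter peaks of Sp1 and Sp4 in the libraries ATAC4 and ATAC5 had no call in ATAC1. The calls of these genes in those 3 libraries are therefore given as a description and support nothing. ATAC-seq uses the Tn5 transposase, which cuts open DNA and leaves sequencing adapters there, so that a peak of reads marks accessible chromatin. The mice were C57BL/6J, of wild type genotype and 6 weeks old, and the source was stromal cells from their bone marrow, which carried no transgene and received no treatment that the labels give. In the study, stromal cells lacking CD31, CD45 and Ter119 and bearing Sca-1 and Pdgfr-α were divided into populations by further surface markers. The labels do not tie a title to a sorted population, so the libraries are called by their titles, ATAC1 to ATAC7. Each title had 1 library, and 1 Input library served all 7 as the control, so that no value has a replicate, no difference between libraries was tested, and a title cannot be told apart from its library.

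The Sp family are zinc finger transcription factors that bind GC boxes and, less tightly, CACCC boxes in promoters of many genes, housekeeping genes among them. Sp1, Sp3 and Sp4 share glutamine-rich regions through which they activate transcription, and Sp3 can also repress. Sp2 is the most divergent of the 4 in its DNA contacts. Sp1 and Sp3 are found in nearly all cell types, whereas Sp4 is best known from neurons. The related Klf factors bind similar sites with a similar set of zinc fingers.

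The lists held 15188 (ATAC7) to 32280 (ATAC2) peaks, 164103 in all. The median peak had 111 to 169 library reads and 21 to 34 Input reads, counted in a wider outer region around the peak, and the median fold over Input was 5.77 to 10.9. A start-site peak is a peak whose centre lay within 1000 bases of an annotated start site of the gene. The share of protein-coding genes with such a peak was 49% for ATAC1, 50.2% for ATAC2 and 43.5% for ATAC3, and it was 43.6% for ATAC4, 52.7% for ATAC5, 51.5% for ATAC6 and 42% for ATAC7. Of the 8 stromal markers examined, 0 had a start-site peak in all 7 libraries, against 36.8% of protein-coding genes, and Ly6a, which encodes Sca-1, Prrx1 and Lepr had one in none, as did 9703 of the 22380 genes. Col1a1 had one in 6 libraries, Pdgfra and Pdgfrb in 5, Col1a2 in 4 and Cxcl12 in 2. Among haematopoietic markers, Gata1 was called in no library, Itgam in 2, Ptprc, which encodes CD45, in 4 and Runx3 in 5. Of 6 endothelial markers, Pecam1 and Kdr had a start-site peak in ATAC5 and the other 4 in none. A part of other cell types in the results was not tested.

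The sequences under 4 of the peaks are shown because these are the promoters whose calls are described. They were read from the NCBIM37 assembly, which is mm9, on the strand of each gene from 5′ to 3′. Capitals mark the GC box GGGCGG and the CCAAT box CCAAT, each searched on both strands, so that CCGCCC and ATTGG are in capitals too. For Sp1 the 300 bases before the first start site are shown, chr15:102236274-102236573 on the plus strand. For Sp2 the whole ATAC4 peak is shown, chr11:96839035-96839292 on the minus strand. For Sp3 the first 300 bases of the ATAC2 peak upstream of the gene are shown, chr2:72818569-72818868 on the minus strand. For Sp4 the whole ATAC4 peak is shown, chr12:119540502-119540637 on the minus strand.
Sp1: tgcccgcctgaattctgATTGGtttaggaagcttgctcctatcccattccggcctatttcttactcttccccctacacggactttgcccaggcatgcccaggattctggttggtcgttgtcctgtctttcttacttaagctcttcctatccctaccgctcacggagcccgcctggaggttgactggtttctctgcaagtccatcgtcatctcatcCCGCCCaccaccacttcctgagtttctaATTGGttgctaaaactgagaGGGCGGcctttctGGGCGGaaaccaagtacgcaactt
Sp2: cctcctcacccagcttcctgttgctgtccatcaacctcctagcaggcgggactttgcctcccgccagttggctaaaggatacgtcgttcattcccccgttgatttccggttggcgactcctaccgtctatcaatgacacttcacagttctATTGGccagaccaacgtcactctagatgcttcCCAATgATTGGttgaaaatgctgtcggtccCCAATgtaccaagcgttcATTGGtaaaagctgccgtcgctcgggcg
Sp3: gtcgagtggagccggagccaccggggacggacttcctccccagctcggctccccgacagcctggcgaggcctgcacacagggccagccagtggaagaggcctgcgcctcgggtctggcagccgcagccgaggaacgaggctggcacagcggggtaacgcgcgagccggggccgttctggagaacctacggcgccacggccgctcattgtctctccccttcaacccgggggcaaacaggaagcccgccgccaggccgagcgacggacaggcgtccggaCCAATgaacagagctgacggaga
Sp4: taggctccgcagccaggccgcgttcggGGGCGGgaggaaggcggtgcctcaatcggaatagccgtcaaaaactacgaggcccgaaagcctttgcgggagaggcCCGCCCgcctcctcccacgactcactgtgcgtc

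The Sp1 window held 3 GC boxes and 2 CCAAT boxes. A GC box was present in 76.4% of the 8649 windows of the same length centred on start-site peaks of ATAC4, and a CCAAT box in 36.9%. The Sp4 peak held 2 GC boxes and no CCAAT box, where 51.9% of windows of its length held a GC box and 24.0% a CCAAT box. The Sp2 peak held 5 CCAAT boxes and no GC box, although 72.2% of its comparison windows had a GC box, and 99.5% of them had fewer than 5 CCAAT boxes. The Sp3 window held 1 CCAAT box and no GC box, against 34.7% and 71.5% of 10071 windows around ATAC2 start-site peaks. The letters CACCC of the Klf-type box, searched on both strands, occurred 1 time in the Sp2 peak and not in the other windows, while 35.5% to 64.5% of the compared windows held it. The ETS site CCGGAAG and the TATA box TATAAA occurred in none of the 4 windows, against 11.1% to 20.5% and 1.51% to 3.63% of the compared windows. These are matches of letters within the windows. The GC content of the Sp1 window was 52.7% and that of the Sp2 peak 53.5%, with 5.55% and 6.79% of the compared windows lower. At Sp3 it was 70.3% and at Sp4 66.9%, near the medians of 65.7% and 66.9%. The whole outer regions, merged over libraries, held 22 GC boxes in 1841 bases at Sp1, 19 in 2663 bases at Sp3, 13 in 2283 bases at Sp4 and 8 in 1378 bases at Sp2. CACCC occurred in them 7 times each at Sp1, Sp2 and Sp3 and 10 times at Sp4. The ETS site occurred 2 times at Sp2 and 1 time at Sp3, and the TATA box 1 time at Sp2. The GC content of these regions was 63.8% at Sp1, 62.8% at Sp2, 70.9% at Sp3 and 62.9% at Sp4.

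Sp1 (ENSMUSG00000001280.6, chr15:102236574-102266835, plus strand) has 8 annotated start sites, and its first start site lay under a strong peak in 4 libraries. The peak had 1707 reads in ATAC2, 2150 in ATAC4, 3337 in ATAC5 and 4588 in ATAC6. The Input library had 140, 142, 140 and 145 reads in these outer regions. ATAC1, ATAC3 and ATAC7 had no peak there. The fold over Input was 19.3 in ATAC2, 17.1 in ATAC4, 40.8 in ATAC5 and 49.8 in ATAC6, with exact 95% intervals of 16.2 to 23.1, 14.5 to 20.5, 34.5 to 48.7 and 42.2 to 59.2. These intervals cover counting error only, as do the others below. By raw fold ATAC6 was the highest and ATAC4 the lowest of the 4 libraries.

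The 4 Sp1 peaks were nearly the same interval, with starts between 102236174 and 102236200 and ends between 102236622 and 102236640. Their centres lay 159 to 172 bases before the first start site, and each reached into the first annotated exon and UTR of Sp1. By the ranking statistic of the authors' peak caller the peak was number 27 of 15650 in ATAC4, 65 in ATAC6, 188 in ATAC5 and 346 in ATAC2. By reads it was number 3 in ATAC4, 2 in ATAC6, 14 in ATAC5 and 61 in ATAC2. Input was ordinary there: it had 78.8 to 82.5 reads per kb, and in ATAC4, for example, the Sp1 value of 82.5 stood beside a median of 87.6 over all genes with a start-site peak.

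A second, weak Sp1 peak lay between genes, with its centre 6220.5 to 6424 bases before the first start site. It was called in ATAC1 with 104 reads, ATAC3 with 85, ATAC5 with 98, ATAC6 with 90 and ATAC7 with 97. Its folds were 5.32, 2.52, 6.71, 5.90 and 3.15, in that order, with intervals that reached from 1.68 to 3.87 in ATAC3 and from 4.29 to 10.9 in ATAC5. All 3 libraries without the promoter call held this upstream peak, and it was not called in ATAC2 and ATAC4. In the 3 libraries it was the peak nearest to the promoter region, which had no other call for 58928 to 59278 bases. Gm17671, the one other gene with a start site within 10 kb, begins 8626 bases away on the opposite strand.

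Sp4 (ENSMUSG00000025323.8, chr12:119473406-119539913, minus strand) has 1 annotated start site and no neighbour within 10 kb. Its promoter peak had 3320 reads in ATAC2, 2504 in ATAC4 and 4792 in ATAC5, against 180, 168 and 185 Input reads. ATAC1, ATAC3, ATAC6 and ATAC7 had no start-site peak. In each of the 3 calling libraries this was the peak with the most reads of the whole list, and by the ranking statistic it was number 6, 3 and 6. The fold was 29.1 (25.1 to 34.0) in ATAC2, 16.9 (14.4 to 19.9) in ATAC4 and 44.4 (38.3 to 51.7) in ATAC5. By raw fold ATAC5 was the highest and ATAC4 the lowest.

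The Sp4 peaks were short. ATAC2 and ATAC5 gave the same 99 bases, 119540539 to 119540637, and ATAC4 gave 136 bases with the same end. The centres lay 656.5 to 675 bases before the start site, between genes, so that with a limit of 500 bases Sp4 was called in 0 libraries, and the start site itself fell inside all 3 outer regions, which were 1814 to 2227 bases wide. ATAC6 had a weak peak further out, at chr12:119541734-119542171, with 118 reads, 15 Input reads and a fold of 12.4 (7.21 to 22.8). That peak ranked 19372 and its centre was 2039.5 bases from the start site. Its outer region began at 119541623, beyond the last outer base of the other libraries, 119541419. In ATAC1 the nearest peak to the Sp4 region was 306959 bases away, within a stretch of 1170560 bases without a call, and in ATAC3 and ATAC7 it was 456803 and 456861 bases away. Among the libraries with the Sp4 call, the nearest other peak was 73765 bases away in ATAC2, 456830 in ATAC4 and 447102 in ATAC5.

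**Figure D1:**
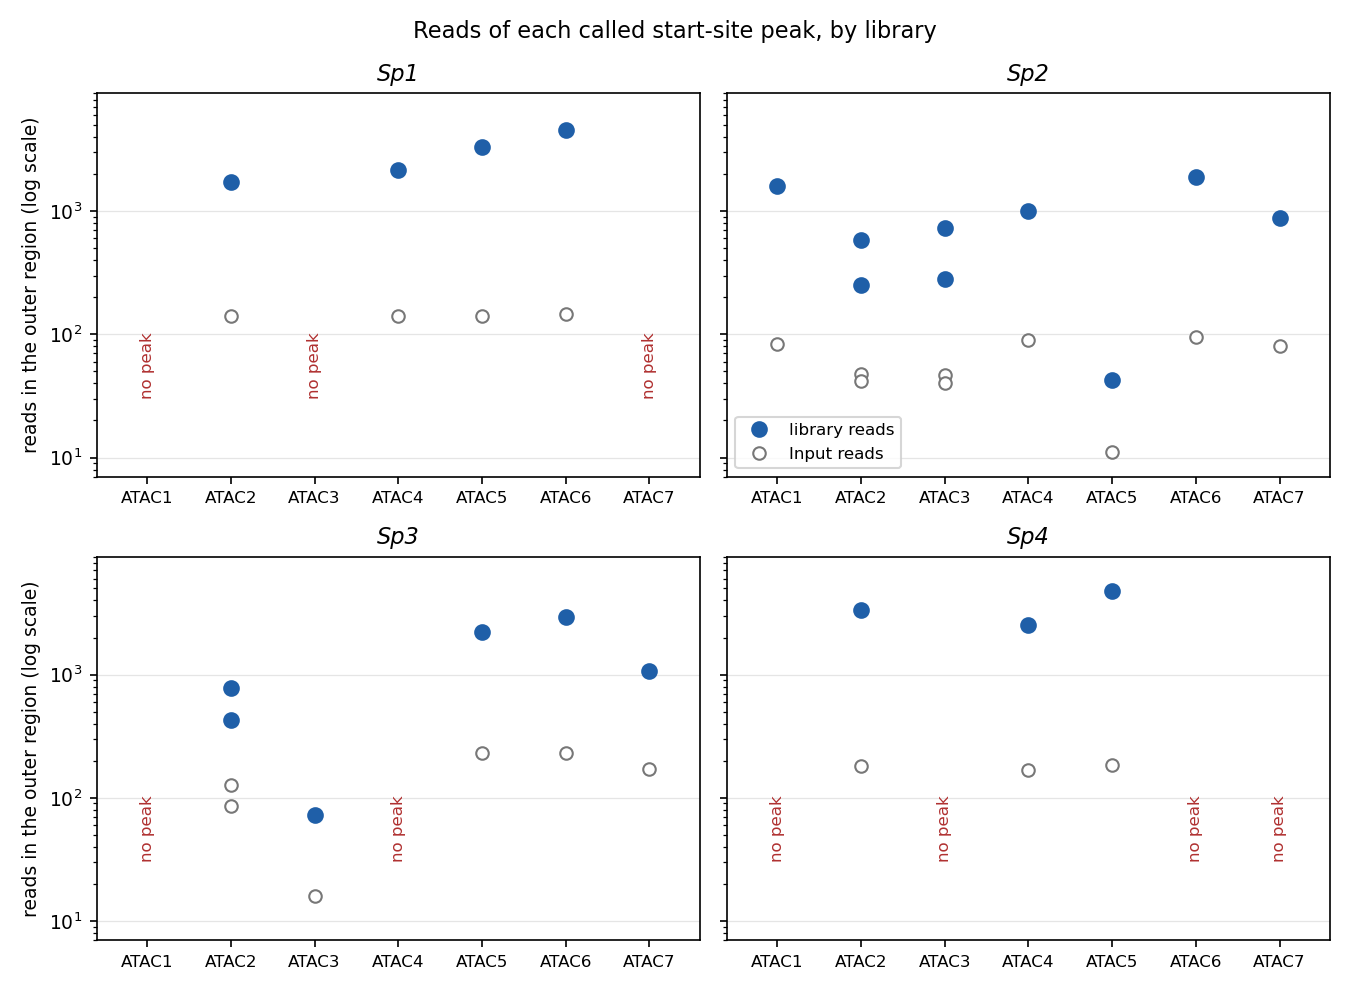
Reads of each start-site peak of Sp1, Sp2, Sp3 and Sp4 on a log axis, with the library on the horizontal axis; filled points are library reads, open points are Input reads in the same outer region, and "no peak" marks a library without a call. Sp1 and Sp4 had 1707 to 4792 reads where they were called and no call in 3 and 4 libraries, while Input stayed between 140 and 185 reads.

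Sp2 (ENSMUSG00000018678.6, chr11:96814654-96844273, minus strand) was the only one of the 4 with a start-site peak in all 7 libraries, and no other gene begins within 10 kb of its start sites. Its strong region lay at the internal start sites 96839025 and 96839002, within an intron of the longest transcript, which begins at 96844273. Its best peak had 1610 (ATAC1), 586 (ATAC2), 735 (ATAC3), 1011 (ATAC4), 1907 (ATAC6) and 877 (ATAC7) reads. Input had 84, 42, 40, 90, 96 and 81 reads. ATAC2 and ATAC3 split the region into a pair of peaks, the lesser with 251 and 283 reads. The fold was 31.3 (25.5 to 38.8) in ATAC6, 23.5 (18.9 to 29.7) in ATAC1, 22.0 (16.1 to 30.9) in ATAC2, 18.5 (13.5 to 26.2) in ATAC3, 12.7 (10.2 to 16.0) in ATAC4 and 11.95 (9.51 to 15.2) in ATAC7. The ranks ran from 534 in ATAC3 to 1889 in ATAC2.

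ATAC5, the library with the second longest list, had no call in this Sp2 region. Its start-site peak was a different one, 75 bases long at chr11:96843878-96843952 and 358 bases into the gene from the outermost start site, with 43 reads, 11 Input reads, a fold of 6.69 (3.40 to 14.4) and rank 24162. The count of 7 libraries for Sp2 thus joins 6 libraries with a strong region and 1 with a weak peak elsewhere, and it was 6 with lists of equal length. Weak peaks also lay in the introns of Sp2. ATAC2, ATAC5 and ATAC6 had one 1412.5 to 1611 bases past the internal start sites, with 49, 83 and 59 reads, which placed it just outside the limit of 1000 bases. ATAC1 and ATAC5 had another past the start site 96829979, with 60 and 68 reads, and its fold of 24.5 in ATAC1 rested on 3 Input reads (interval 8.01 to 122).

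Sp3 (ENSMUSG00000027109.9, chr2:72774484-72818503, minus strand) has 6 annotated start sites and was called in 5 libraries over 1 broad region. The reads were 2233 in ATAC5, 2909 in ATAC6 and 1072 in ATAC7. ATAC2 had a pair of peaks with 772 and 425 reads, and ATAC3 had only a short peak with 72 reads. ATAC1 and ATAC4 had no peak. Input had 229 reads in both ATAC5 and ATAC6, over outer regions of 2593 and 2663 bases, which is 88.3 and 86.0 reads per kb. The fold over Input of Sp3 was highest in ATAC6, with an interval of 17.5 to 23.0. It was 16.7 (14.6 to 19.2) in ATAC5, 6.84 (5.82 to 8.08) in ATAC7, 9.60 (7.95 to 11.7) and 7.81 (6.18 to 9.96) in ATAC2 and 4.54 (2.62 to 8.36) in ATAC3.

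The position of the Sp3 peak differed between libraries. In ATAC5, ATAC6 and ATAC7 it lay at the internal start site 72817343, with its centre 56 to 83 bases into the gene. In ATAC2 the peaks lay 335 bases before that site, over coding sequence of Sp3, and 252.5 bases before the outermost start site. In ATAC3 it lay 414.5 bases past the start site 72817048. The region is shared with 1700011J10Rik, a processed transcript on the opposite strand that begins 138 bases from an Sp3 start site, and lies within Gm11084, which begins 6270 bases away, so that the reads cannot be given to 1 of these genes. A microRNA gene, AL844840.1, begins 9903 bases from another Sp3 start site.

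**Figure D2:**
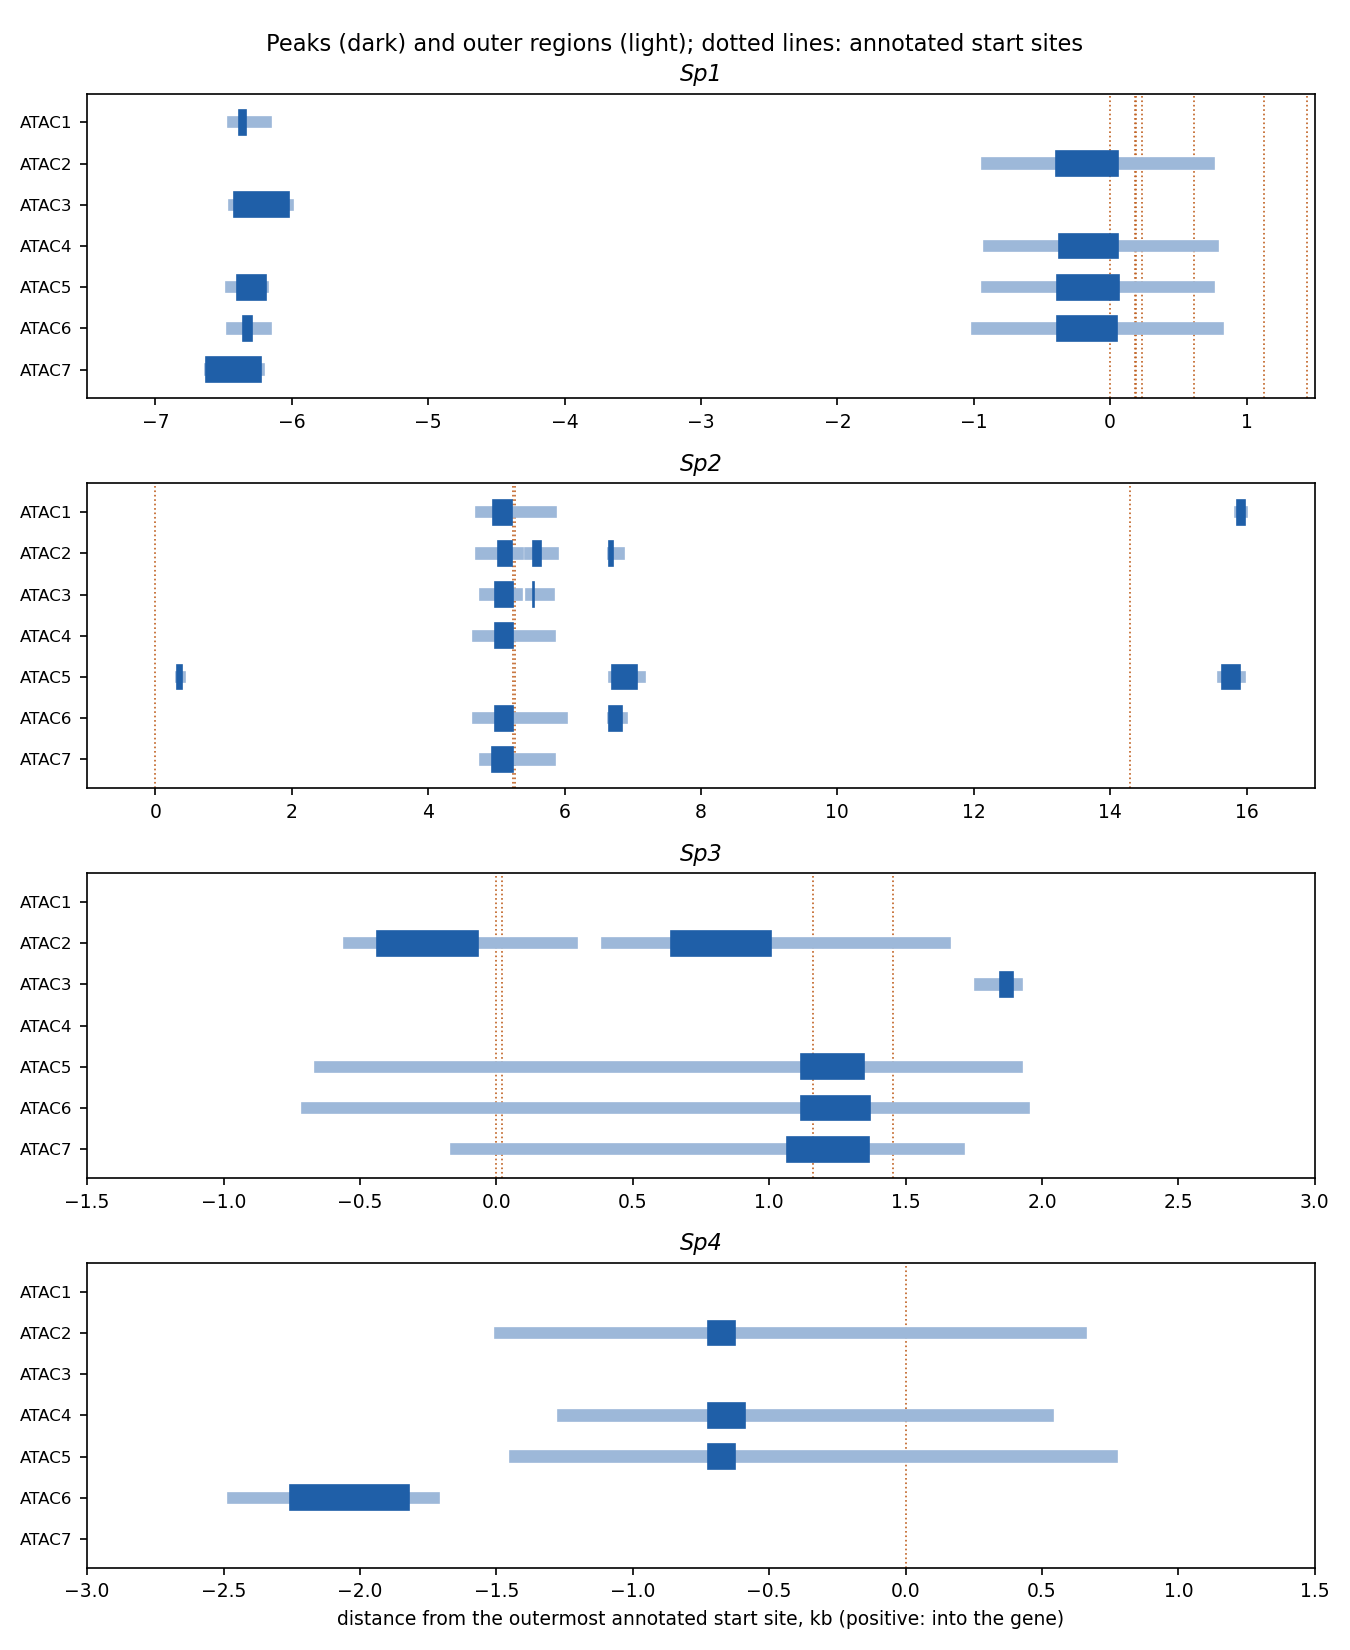
Peaks (dark bars) and outer regions (light bars) of Sp1, Sp2, Sp3 and Sp4 in each of the 7 libraries, against the distance in kb from the outermost annotated start site, with positive values into the gene and dotted lines at annotated start sites. Sp1 peaks coincide in 4 libraries and the weak upstream peak appears in 5; Sp4 peaks coincide in 3 libraries and the ATAC6 peak lies apart from them.

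Over the 4 genes and 7 libraries, 19 of 28 pairs of a gene and a library had a start-site peak, where 42% to 52.7% of all protein-coding genes had one in a given library. ATAC2 and ATAC5 had one for each gene, though that of Sp2 in ATAC5 was the weak one. ATAC6 lacked Sp4, ATAC4 lacked Sp3, ATAC3 and ATAC7 lacked Sp1 and Sp4, and ATAC1 lacked Sp1, Sp3 and Sp4. Within 10 kb there were 33 peaks: 9 at Sp1, 14 at Sp2, 6 at Sp3 and 4 at Sp4. Of these, 22 lay at a start site, the farthest at 675 bases.

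Folds differ between libraries as a whole, since the median fold of start-site peaks ran from 5.89 in ATAC3 and ATAC7 to 12.4 in ATAC5. Relative to that median, Sp1 was 2.21 times as high in ATAC2, 2.71 in ATAC4, 3.30 in ATAC5 and 4.17 in ATAC6. The counting intervals scaled in the same way were 1.86 to 2.64, 2.29 to 3.24, 2.78 to 3.93 and 3.54 to 4.96. Those of ATAC2 and ATAC4, of ATAC4 and ATAC5 and of ATAC5 and ATAC6 overlapped, and the other pairs did not. All libraries share the same Input library, so overlap here and below describes the intervals and is no test between libraries. Sp4 was 3.34 times as high in ATAC2 (2.87 to 3.90), 2.67 in ATAC4 (2.28 to 3.14) and 3.58 in ATAC5 (3.09 to 4.17), and the 3 intervals overlapped. The best-ranked peak of the strong Sp2 region was 2.01 times (ATAC4) to 3.14 times (ATAC3) the median. The intervals of these 2 libraries, 1.62 to 2.53 and 2.29 to 4.44, overlapped. The ATAC3 and ATAC2 values are those of the better-ranked of a pair of peaks, with outer regions of 614 and 679 bases. The lesser peaks had folds of 6.07 and 8.26. In ATAC1, ATAC4, ATAC6 and ATAC7 a single outer region of 1099 to 1378 bases was counted, so the values are not of like regions. Sp3 was 1.67 times (1.46 to 1.92) the median in ATAC6, 1.35 (1.18 to 1.55) in ATAC5, 1.16 (0.988 to 1.37) in ATAC7, 0.894 (0.708 to 1.14) in ATAC2 and 0.770 (0.444 to 1.42) in ATAC3, so that the intervals of ATAC5 and ATAC6 lay above 1. The ATAC2 value is that of the better-ranked of its pair of peaks, with 425 reads, and the other, with 772 reads and a fold of 9.60, lay above the ATAC2 median of 8.73. In the calling libraries Sp4 had more reads than at least 99.9% of the genes with a start-site peak, and its Input per kb was above that of 53.3% to 62.2% of them. Sp1 had more reads than at least 99.4% of them in each of its libraries.

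**Figure D3:**
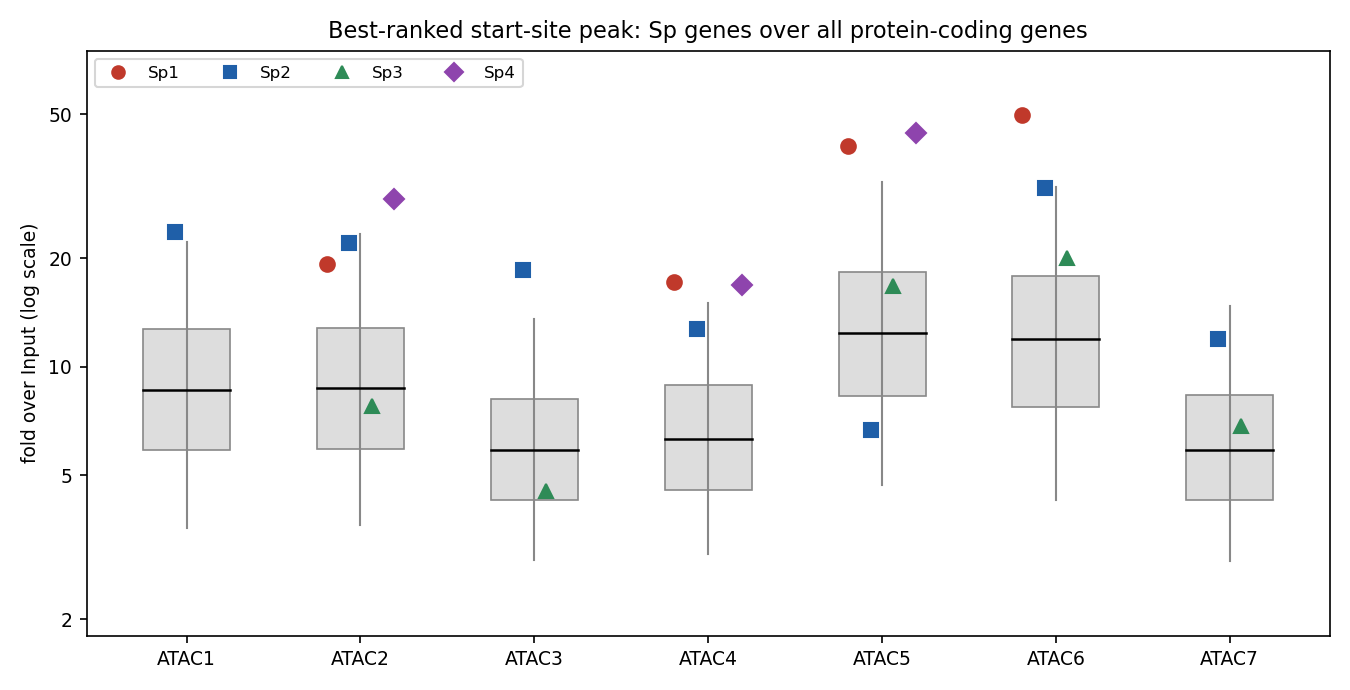
Fold over Input of the best-ranked start-site peak on a log axis, by library; bars span the 25th to 75th percentile over protein-coding genes with such a peak, black lines are medians, thin lines the 5th to 95th percentile, and symbols the 4 Sp genes where called. Sp4 lies above the 95th percentile in its 3 libraries, Sp1 in 3 of its 4 libraries and Sp2 in ATAC1 and ATAC3, and Sp3 lies at 0.770 to 1.67 times the median. The Sp2 peak in ATAC3 is the better-ranked of a pair into which its region was split.

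The missing calls were set beside the same counts over all genes. Of 9463 genes with a start-site peak in ATAC4 and ATAC5, 131 had none in ATAC1, which is 1.38% (Wilson 95% interval 1.17 to 1.64), and Sp1 and Sp4 are among them by their selection. Of 1128 genes with a start-site peak among the best 500 peaks of at least 1 list, 1042 had one in all 7 libraries, and 20 had none in 3 or more libraries, which is 1.77% (1.15 to 2.72). Sp4, with a best rank of 3, and Sp1, with 27, were among these 20. Others were Abtb1, Ube2d3, Fbxo5, Rap2a and Nfkbia, and Mob3a and Izumo4, which share a peak. Fancf and Gas2 also had the same ranks in every library, as did Raly and the gene a. Each gene was counted on its own, so the interval treats genes that share a peak as independent. These genes were named after their values were seen. A gene called in 6 libraries was missing from the seventh in 0.543% of cases for ATAC1 (45 of 8283 genes) up to 4.64% for ATAC7 (401 of 8639); with lists of equal length the ATAC1 count was 96.

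The share of missing calls did not fall steadily from weak to strong peaks. Over the 42 ordered pairs of libraries, the median share of genes with a start-site peak in one and none in the other was 1.79% for ranks 1 to 100, 1.59% for 101 to 500, 1.22% for 501 to 1000, 1.09% for 1001 to 3000 and 1.79% for 3001 to 8000. It was 11.2% for ranks 8001 to 15000. The share also varied with the width of the outer region. Pooled over libraries it was 24.6% up to 300 bases, 13.3% for 301 to 600 and 4.07% for 601 to 900. For wider regions it was 1.90% for 901 to 1200, 1.86% for 1201 to 1500, 2.56% for 1501 to 1800 and 3.89% above 1800. The outer regions of Sp1 (1700 to 1841 bases), Sp4 (1814 to 2227) and Sp3 in ATAC5 to ATAC7 (1881 to 2663) all exceeded 1500 bases, and the part of width in their missing calls was not tested. A missing call gives no read count, so it cannot be read as closed chromatin.

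**Figure D4:**
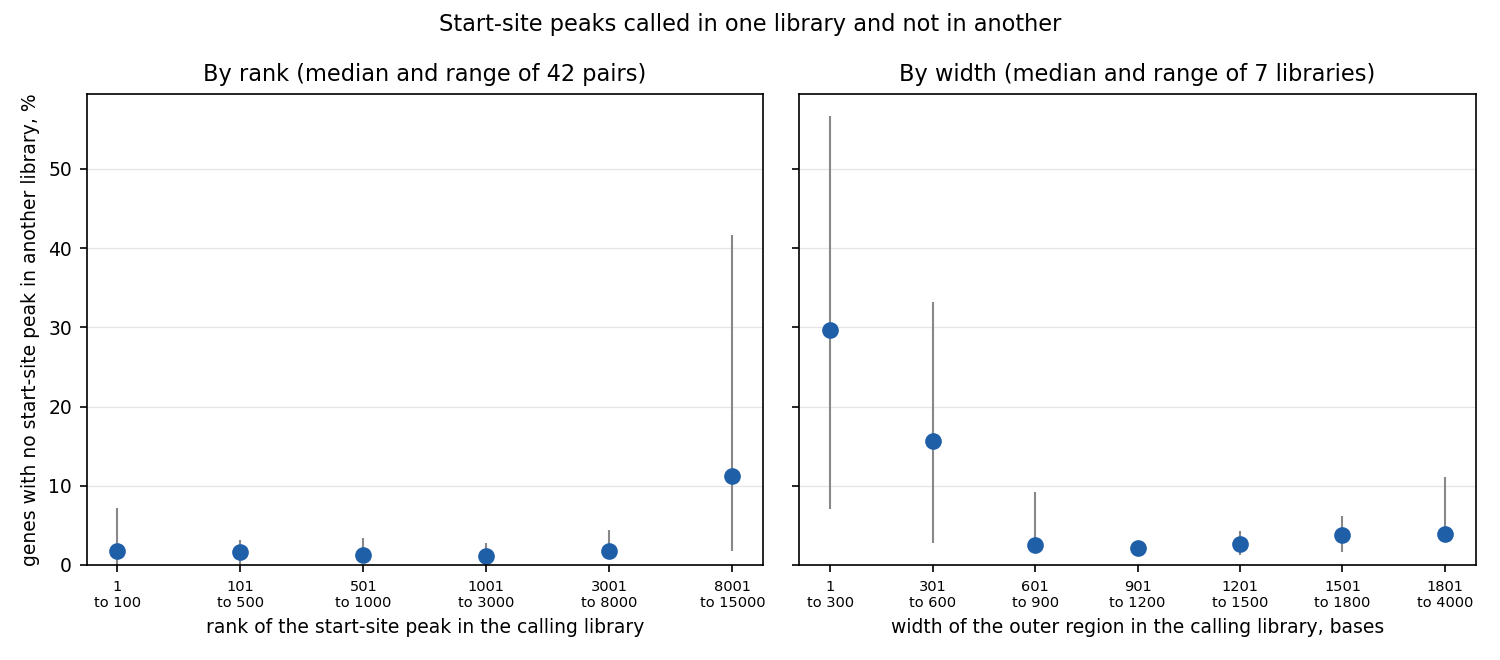
Share of genes with a start-site peak in one library and none in another, in percent, by the rank of the peak (left; points are medians and lines the range over 42 pairs of libraries) and by the width of its outer region (right; median and range over 7 libraries). The medians stay between 1.09% and 1.79% down to rank 8000 and reach 11.2% beyond it, and by width they are lowest at 901 to 1200 bases.

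For Sp5, Sp6, Sp7, Sp8 and Sp9 no library listed a start-site peak. They include Sp7, the osterix of bone-forming cells, which lies 39288 bases from Sp1 on chromosome 15. Sp6 lies 30434 bases from Sp2, Sp9 291478 bases from Sp3 and Sp8 544888 bases from Sp4, each on the same chromosome as its partner. Over all protein-coding genes, 8238 (36.8%) had a start-site peak in all 7 libraries and 9703 in none. Of the 17 Klf genes, 11 had one in all 7, Klf12, Klf14 and Klf17 in none, Klf1 in 2, Klf8 in 4 and Klf7 in 6. Klf13 had the peak with the most reads in ATAC1, ATAC3, ATAC6 and ATAC7, which are the 4 libraries without the Sp4 call, and the second most in ATAC2 and ATAC5. In ATAC4 its start-site peak had 1684 reads, fewer than those of Sp4 (2504), Ube2d3 (2245) and Sp1 (2150). Klf6, an early-response factor, ranked as high as 24, with folds from 16.9 to 41.7, and was called in all 7 libraries.

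Among 11 genes of coactivators and corepressors that work with Sp1, 10 had a start-site peak in all 7 libraries, against 36.8% of all protein-coding genes, including Hcfc1, Crebbp, Hdac1 and Sin3a. Ep300, an acetyltransferase, lacked one in ATAC5. Of 16 other promoter-binding factors 15 were called in all 7, against the same 36.8%, among them Nfya, Nfyb and Nfyc, the subunits of the CCAAT-binding factor, Yy1, Nrf1 and Gabpa. Wt1 had none.

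The genes most like each member were taken by the Euclidean distance of the log2 fold over the 7 libraries, with 0 where a library had no peak. Abtb1 was nearest to Sp1 (distance 1.13). It was called in the same 4 libraries, with ranks 607, 208, 177 and 42 in ATAC2, ATAC4, ATAC5 and ATAC6. Zfp952 (2.05) and Zfp960 (2.71), both on chromosome 17, followed with the same 4 libraries but ranks of 8265 or worse. Sp2 was nearest to Wbp2 (1.28), Cflar (1.51) and Mrpl10 (1.54), all called in 7 libraries. Sp3 was nearest to Ido2 (1.08), Meis1 (1.53) and Fam180a (1.69), each without a call in ATAC1 and ATAC4. Sp4 had no close match: Zfp653 (3.60), Ddx5 (3.62) and Ube2d3 (3.69) differed from it by a call in ATAC7, and Ddx5 also in ATAC3. A different set, to which none of the 4 Sp genes belongs, are the genes called in all 6 other libraries with no ATAC1 peak within 10 kb. They numbered 25, and by their ATAC4 rank Zfp295, Eef1a1, Mboat7 and Hipk3 came first. Zfp295 ranked 485 to 1057 in those 6 libraries.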

How the data were processed

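Bone marrow stromal cells were profiled by ATAC-seq in 7 libraries, with 1 Input library. The authors used bowtie for alignment to mm9 and CisGenome, in its two-sample mode against Input, for peaks of each library on its own. Read shifting and duplicate removal are not given in the sources used here. The deposited tables have no header. For each outer region the deposited files hold raw read counts made by the authors' peak caller, one for the library and one for Input. The authors' fold is a ratio, a scale factor times library reads over Input reads plus 0.01. The deposited ranking statistic and a window value are signal columns of the peak caller, and ranks follow from the former. Columns were identified from the values. Separate coordinate lists equalled the tables in all 164103 peaks. Positions are printed as in the files, and a start is 1 base too low where a file counts from 0.

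Peaks were placed by their centre on GENCODE vM1 start sites (within 1000 bases, or 10 kb) with Python 3.11.15, pandas 2.3.3 and scipy 1.17.1. The lookup was tested on simulated peaks. The genes, gene lists and alternatives were chosen with earlier results of these data known. Named genes were Sp1 to Sp4, neighbours within 10 kb, the 3 most alike genes of each, and the 5 best-ranked genes with no ATAC1 call within 10 kb. Spi1 was not matched by symbol, and some genes that these rules name are not reported here. Fold intervals are exact binomial intervals of library reads over library plus Input reads, and shares have Wilson intervals. Both cover counting error only, reads are not independent molecules, and the same Input reads enter every library. With 1 library per title no test across genes or libraries was made. Total reads per library are not given in the sources used here. Depth enters only through reads per peak and the scale factor of the fold. The median of that factor ran from 1.01 in ATAC3 to 1.71 in ATAC5, and how it was derived is not given.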

Additional observations from a re-analysis of the deposited data

How the results depend on the processing

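Of 60 alternative values, 54 stayed close to the reported one and 6 did not, where a count was taken to have moved on a change of 1.5 times. With start sites within 500 bases, Sp4 was called in 0 libraries, since its peak centres lie farther out. Sp1 had 4 peaks within 5 kb, against 9 within 10 kb. With lists of equal length (the best 15188 peaks of each), Sp2 had 8 peaks within 10 kb in place of 14. The median fold of Sp2 was 12.7 with reads summed over its start-site peaks, against 18.5 for the best peak. The 45 genes called in the 6 other libraries and not in ATAC1 became 96 with lists of equal length and 25 when no ATAC1 peak was allowed within 10 kb. They became 31 with a fold of at least 5, which was within the limit. Chosen after seeing the data, the use of any base of the outer region gave 131 genes in ATAC4 and ATAC5 without ATAC1 (131 by centre) and 22 top genes missing from 3 or more libraries (20 by centre). No paired analysis was possible because no title had a second library. Leaving out a replicate was not possible for the same reason. Reads are listed only under called peaks, so a missing peak could not be told apart from one below the authors' threshold.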
